A study of Mus musculus with 4 samples.

Results

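The genes described here were the 3 transforming growth factor beta (TGF-beta) ligands Tgfb1, Tgfb2 and Tgfb3, the 4 latent TGF-beta binding proteins Ltbp1, Ltbp2, Ltbp3 and Ltbp4, and the 3 receptor genes Tgfbr1, Tgfbr2 and Tgfbr3. They were taken by gene symbol, 10 of the 31053 genes in the deposited matrices, and each symbol matched 1 feature. Their molecule counts were summed over whole libraries and over cells set apart by pairs of marker genes.

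TGF-beta is made as a latent dimer, in which the growth factor stays bound to its own propeptide and, through it, to a latent binding protein that anchors the complex in the extracellular matrix. Integrins and other surface or matrix proteins release the growth factor, which binds TGFBR2, brings TGFBR1 into the complex and leads to phosphorylation of Smad2 and Smad3. In liver the pathway is best known for driving hepatic stellate cells, the vitamin A storing pericytes, to make collagen.

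The study was a droplet-based single-cell RNA survey of liver non-parenchymal cells, the cells other than hepatocytes, from mice with diet-induced steatohepatitis and from mice in recovery. Injury was produced by 8 weeks of a 45% fat diet deficient in methionine and choline, with 0.1% L-methionine in the drinking water. All mice carried Col1a2-CreERT2, a tamoxifen-dependent Cre under a collagen gene promoter, and a tdTomato reporter. Cells were described as positive or negative, and each of the 4 libraries was the only one of its kind. The libraries used here were positive recovery (genotype label Col1a2-CreERT2; R27RtdTomato), negative recovery (R29RtdTomato) and negative injury (R28RtdTomato), while the design text names R26RtdTomato for the line. The counts of the positive injury library (R26RtdTomato), 5311 barcodes, were not analysed here, and no library from mice without the diet was analysed here. The reporter marks cells in which the Col1a2 promoter drove Cre and their progeny, and tdTomato was not among the features, so the fraction was taken as labelled. Neither the labels nor the design text state how long recovery lasted, how many mice were used or how positive cells were parted from negative ones.

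After filtering, 2380 positive recovery cells, 2949 negative recovery cells and 5443 negative injury cells remained. Their median depths were 11232, 8670 and 6849 unique molecular identifiers (UMIs, 1 for each captured RNA molecule). Before filtering, any pair of these libraries shared 3 to 8 barcodes. Levels are given as UMIs of a gene in every 1e+06 UMIs of the summed cells (CPM) with exact Poisson 95% intervals, and shares of cells with exact Clopper-Pearson intervals. These cover counting error only. With 1 library per group there was no replicate check, so no test was made and no difference between groups is called significant.

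Cells were gated as mesothelial (Upk3b and Nkain4), stellate (Lrat and Reln), endothelial (Kdr and Ptprb) or duct (Epcam and Spp1), each with at least 1 UMI of both genes and of no other pair. Mesothelial cells numbered 1264 in positive recovery, 67 in negative recovery and 255 in negative injury. Stellate cells numbered 143 in positive recovery, 5 in negative recovery, too few to describe, and 38 in negative injury. Endothelial cells numbered 144, 2284 and 3571, and duct cells 24, 384 and 1024, in the same order of libraries. Other markers of each type stood high in its gate. The summed level of 7 sinusoidal endothelial markers was 11140 CPM, 11346 CPM and 9990 CPM in endothelial cells of positive recovery, negative recovery and negative injury, and the 5 mesothelial markers summed to 7325 CPM, 7680 CPM and 4228 CPM in mesothelial cells. The duct gate also held hepatocyte RNA, with 5 hepatocyte markers summing to 8568 CPM in positive recovery, 6786 CPM in negative recovery and 9721 CPM in negative injury. In positive recovery the stellate gate held portal fibroblast markers, 877 CPM for 3 of 4 markers detected, against 13.6 CPM in negative injury. Part of that gate is therefore described below by its fibroblast genes and not as stellate.

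The RefSeq promoter windows, 250 bases before to 50 bases after each transcription start, are shown for the 3 genes on which the results turn. Tgfb1 was high and Tgfb2 low in sinusoidal endothelial cells, and the reverse held in mesothelial and duct cells. Vascular endothelial cells and the stellate gate held both. Over all cells, Ltbp4 differed most between negative recovery and negative injury. Sequences are GRCm38.p6, read on the strand of the gene. Capitals mark the motif TATAAA of TATA boxes, the E-box motif CACGTG and the GC box motif GGGCGG, searched on both strands with overlapping copies counted.

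The Tgfb1 window, chr7:25686752-25687051 on the plus strand, was 77% G and C and held 6 GC boxes and no TATAAA.
Tgfb1: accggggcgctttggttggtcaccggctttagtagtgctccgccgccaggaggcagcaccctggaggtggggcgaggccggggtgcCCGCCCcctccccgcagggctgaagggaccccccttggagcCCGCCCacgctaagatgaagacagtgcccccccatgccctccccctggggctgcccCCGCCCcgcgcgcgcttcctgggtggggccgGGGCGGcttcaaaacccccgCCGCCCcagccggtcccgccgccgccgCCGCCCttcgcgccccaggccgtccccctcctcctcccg
The Tgfb2 window, chr1:186705940-186706239 on the minus strand, was 54.3% G and C.
Tgfb2: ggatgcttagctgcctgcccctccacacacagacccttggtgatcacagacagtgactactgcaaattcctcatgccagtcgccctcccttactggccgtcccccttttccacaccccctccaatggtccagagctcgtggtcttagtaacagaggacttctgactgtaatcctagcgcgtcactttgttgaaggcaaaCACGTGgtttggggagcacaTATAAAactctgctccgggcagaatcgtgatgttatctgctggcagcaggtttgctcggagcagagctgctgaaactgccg
The long Ltbp4 transcript starts in chr7:27337563-27337862 on the minus strand, 64.3% G and C with 3 GC boxes.
Ltbp4 long: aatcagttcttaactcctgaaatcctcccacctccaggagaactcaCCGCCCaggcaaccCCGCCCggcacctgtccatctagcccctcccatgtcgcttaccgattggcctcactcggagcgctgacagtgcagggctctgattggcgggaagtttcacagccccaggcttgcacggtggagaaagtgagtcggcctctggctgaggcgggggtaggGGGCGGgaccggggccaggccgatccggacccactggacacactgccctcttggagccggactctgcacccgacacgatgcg
A shorter Ltbp4 transcript starts in chr7:27333599-27333898 on the minus strand, 80.3% G and C with 7 GC boxes.
Ltbp4 short: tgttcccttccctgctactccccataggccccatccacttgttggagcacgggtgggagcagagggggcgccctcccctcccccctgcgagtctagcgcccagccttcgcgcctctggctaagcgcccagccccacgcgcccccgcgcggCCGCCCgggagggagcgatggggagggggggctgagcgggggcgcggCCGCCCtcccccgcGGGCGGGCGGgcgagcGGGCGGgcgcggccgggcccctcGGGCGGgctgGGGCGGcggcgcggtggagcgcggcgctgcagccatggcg

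The Tgfb2 window held TATAAA 31 bases and CACGTG 51 bases before the start site, and no GC box. Of the 32544 mouse promoter windows of this length, 13.6% held TATAAA, 7.17% held CACGTG and 35.9% held GGGCGG. These matches describe the windows and were not tested for binding. Of the other members, Ltbp1 held TGACGTCA (1.80% of windows) in the window of its first start, chr17:75005279-75005578. The AP-1 motif TGANTCA was found in the window of 1 member, Ltbp3, and in 7.79% of all windows. The palindrome GTCTAGAC, a Smad motif, was found in none of the members' windows, against 0.215% of all windows. The table matched 8 of the 10 members, all but Tgfb3 and Tgfbr3. Counts from the 3′ ends of transcripts cannot tell the Ltbp4 starts apart.

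In all cells together, the positive recovery library held more of 5 members and less of 1 than the negative recovery library, counting differences past 2-fold with 10 CPM added to each level. Past 2-fold higher were Ltbp1 (log2 ratio 2.22), Ltbp3 (1.99), Tgfb3 (1.98), Ltbp2 (1.95) and Tgfb2 (1.45), and past 2-fold lower was Tgfb1 (-2.03). With 50 CPM added, 3 remained past 2-fold higher, while Ltbp2 (0.67) and Tgfb3 (0.99) did not. Of the 10042 genes with at least 10 CPM in either library, 8.99% were higher and 10.4% lower past 2-fold. The median log2 ratio was 0.98 over the 10 members, all of which passed the level filter, and -0.17 over all genes. The libraries differed in makeup. Mesothelial cells were 53.1% of cells in positive recovery and 2.27% in negative recovery, and endothelial cells 6.05% and 77.45%. In such summed levels, fewer cells of a type and less RNA per cell cannot be told apart.

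Within mesothelial or endothelial cells, few genes were past 2-fold between the positive and negative fractions of recovery, and no member was. In mesothelial cells 8 members passed the filter and 0 were past 2-fold, where 1.6% of 8830 genes were. The widest was Ltbp1, at 73.5 CPM in positive recovery and 119 CPM in negative recovery (log2 ratio -0.63). It ranked 102 of 8830 genes from the lowest. The members' median log2 ratio in mesothelial cells, without thinning, was -0.15, beside -0.00 over all genes. With the mean of each cell's CPM in place of summed counts, Ltbp2 was past 2-fold higher in mesothelial cells of positive recovery. In endothelial cells 6 members passed and 0 were past 2-fold, where 1.03% of 8819 genes were. Ltbp4 (log2 ratio -0.45) ranked 204 from the lowest there, and Tgfbr1 (0.42) ranked 249 from the highest. The endothelial count of members past 2-fold depended on the gate. When cells positive for more than 1 marker pair were kept, 4 members (Tgfb2, Tgfb3, Ltbp1 and Ltbp3) were past 2-fold higher in positive recovery, where 8.02% of genes were past 2-fold.

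**Figure D1:**
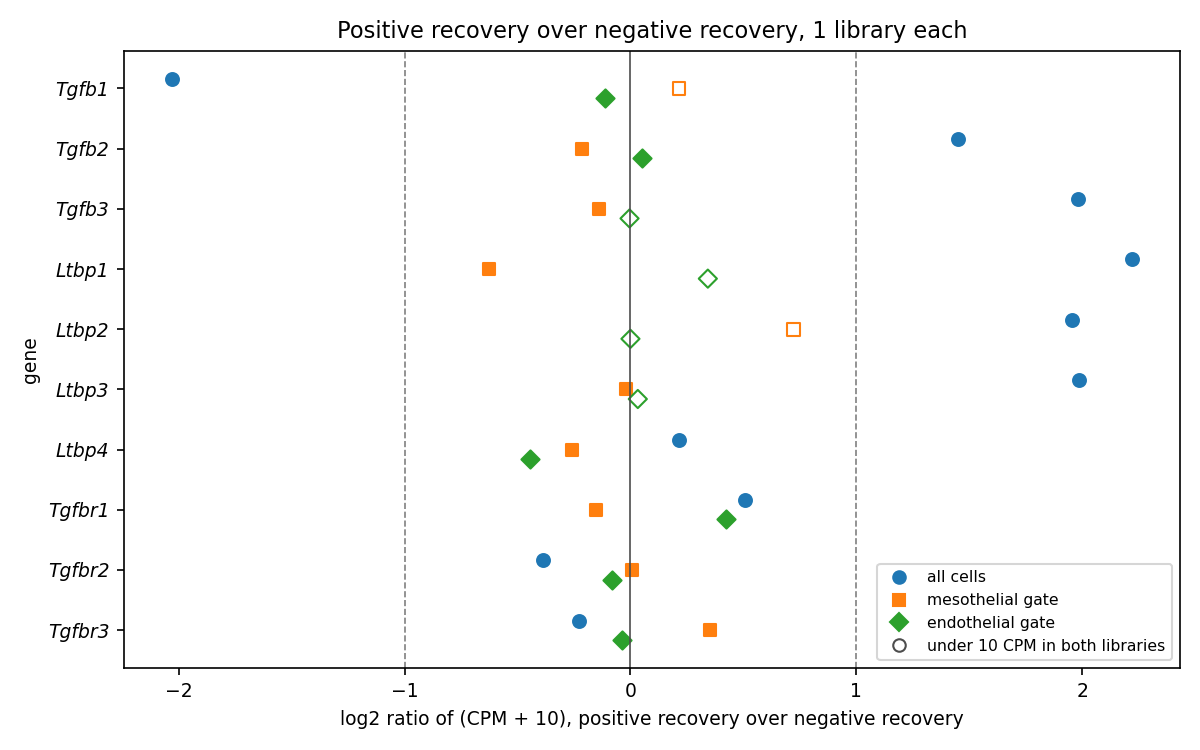
Log2 ratio of each member, positive recovery over negative recovery, in all cells, mesothelial cells and endothelial cells, with 10 CPM added to each level and dashed lines at 2-fold. Ltbp1 stood at 2.22 and Tgfb1 at -2.03 in all cells, and within mesothelial or endothelial cells no plotted value lay past 2-fold.

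Tgfb1 encodes the most widely studied ligand, made by endothelial and blood cells in many tissues. It lies at chr7:25687002-25705077 on the plus strand. Endothelial cells held 229 CPM (204 to 257) in positive recovery, 249 CPM (242 to 256) in negative recovery and 244 CPM (237 to 250.4) in negative injury. The endothelial levels stood close together, with a log2 ratio of 0.03 for recovery over injury in the negative fraction. Leukocyte-gated cells of positive recovery (113 cells) held 189.8 CPM (164 to 218). The stellate gate held 49.8 CPM in positive recovery, where it was mixed, and 99.5 CPM in negative injury, libraries that differ in both fraction and stage. Mesothelial cells held 9.22 CPM, 6.56 CPM and 11.0 CPM in positive recovery, negative recovery and negative injury, and duct cells 3.88 CPM, 6.49 CPM and 14.6 CPM. Endothelial and leukocyte cells were thus the high groups and mesothelial and duct cells the low ones, with no overlap between them. Of all Tgfb1 UMIs, endothelial cells held 24.6% in positive recovery, 96.8% in negative recovery and 89.1% in negative injury. Of the UMIs of all genes they held 3.98%, 71.0% and 45.8%, so these shares follow the makeup of each library as well.

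Tgfb2 encodes the ligand that needs the co-receptor betaglycan for strong receptor binding. It lies at chr1:186622792-186705989 on the minus strand and overlaps the antisense gene Gm29491. Neither source states whether counting used strand, so reads of the overlapping pair cannot be told apart. Mesothelial cells held 189 CPM (183 to 195) in positive recovery, 221 CPM (195 to 249) in negative recovery and 128 CPM (118 to 138) in negative injury. Duct cells held 85.3 CPM, 98.5 CPM and 98.7 CPM. In sinusoidal endothelial cells, endothelial-gated cells whose sinusoidal markers outweighed vascular ones, the level was 9.28 CPM in positive recovery, 4.38 CPM in negative recovery and 4.33 CPM in negative injury. The small vascular endothelial group differed from the sinusoidal one. It held 277 CPM (251 to 305) in 123 negative recovery cells and 101.2 CPM (83.6 to 121) in 158 negative injury cells. No Tgfb2 UMI was found in leukocyte-gated cells, which allows a level of up to 2.94 CPM.

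Tgfb3 encodes the remaining ligand, known for its part in palate formation. It lies at chr12:86056745-86079041 on the minus strand and overlaps Ttll5 on the other strand, with the same limit. Mesothelial cells held 84.7 CPM (80.9 to 88.7) in positive recovery, 94.4 CPM (77.9 to 113) in negative recovery and 90.6 CPM (82.6 to 99.3) in negative injury, intervals that overlap. Duct cells held 11.6 CPM, 19.3 CPM and 26.8 CPM. Endothelial cells were near 0 in every library, at 0.799 CPM, 0.829 CPM and 0.853 CPM.

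The ligand makeup differed among the cell types, and in some of them between libraries. UMIs are 1 per molecule and need no division by length, but capture can differ between genes. Tgfb2 made up 66.8% of mesothelial ligand UMIs in positive recovery, 68.6% in negative recovery and 55.7% in negative injury, and Tgfb3 made up 29.9%, 29.3% and 39.6%. Sinusoidal endothelial ligand UMIs in positive recovery were 95.9% Tgfb1. Leukocyte ligand UMIs were 97% Tgfb1, and duct ligand UMIs 84.6%, 79.3% and 70.4% Tgfb2. Vascular endothelial cells held both, with Tgfb2 at 60.6% in negative recovery and 36.3% in negative injury. The stellate gate as a whole had Tgfb2 at 49.8% and Tgfb1 at 30.1% of 299 ligand UMIs in positive recovery. In negative injury it had Tgfb2 at 18.3% and Tgfb1 at 73.3% of 60. The positive recovery gate was mixed, by a split described below. Its 57 cells with the portal fibroblast genes Dpt and Mfap4 held 109 Tgfb2 and 23 Tgfb1 UMIs. Its other 86 cells held 40 Tgfb2 and 67 Tgfb1 UMIs, so Tgfb1 was the main ligand there as in negative injury.

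**Figure D2:**
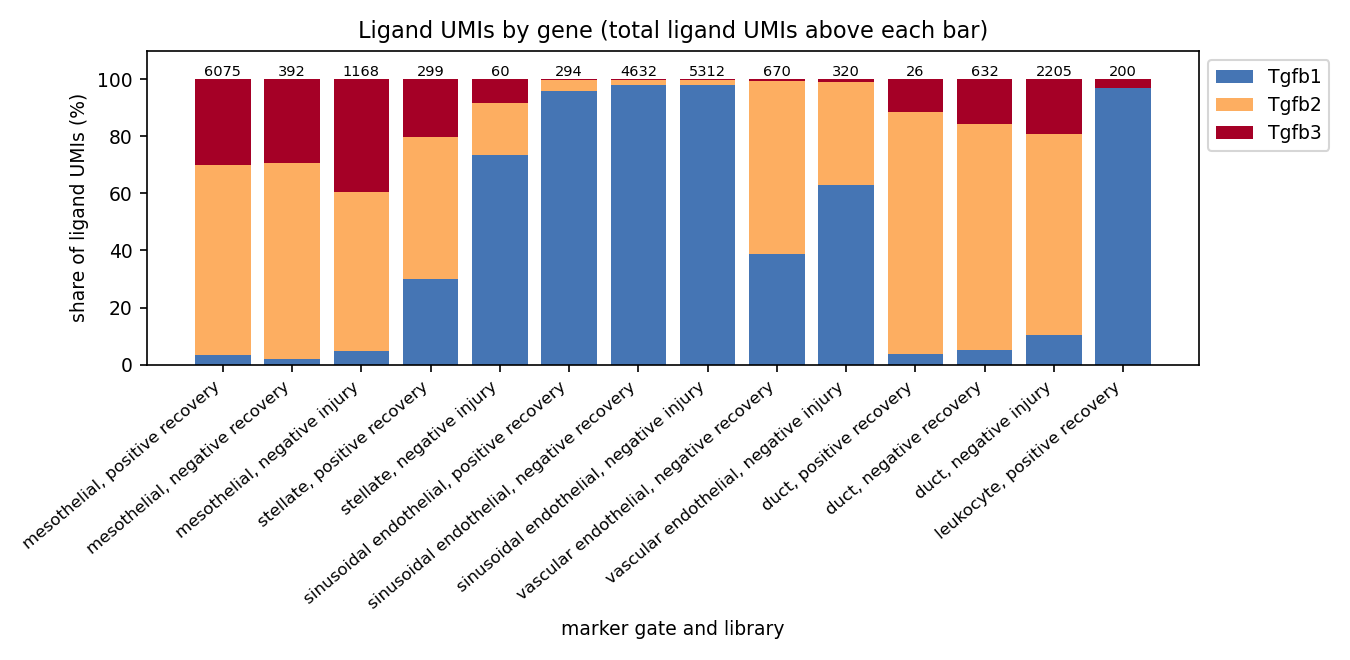
Share of Tgfb1, Tgfb2 and Tgfb3 UMIs among the ligand UMIs of each cell type and library, as stacked bars in percent. Tgfb2 was 66.8% of mesothelial and Tgfb1 95.9% of sinusoidal endothelial ligand UMIs in positive recovery.

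Ltbp1 encodes a binding protein that attaches all 3 latent ligands to the matrix. It lies at chr17:75005568-75392512 on the plus strand. The stellate gate held 159 CPM (141 to 178) in positive recovery and 104 CPM (76.1 to 139) in negative injury. Within the positive recovery gate, the 57 cells with Dpt and Mfap4 held 203 CPM. The other 86 cells held 113 CPM (92.3 to 138), an interval that overlaps that of negative injury. Mesothelial cells held 73.5 CPM (69.9 to 77.2) in positive recovery, 119 CPM (100.4 to 140.0) in negative recovery and 94.95 CPM (86.7 to 104) in negative injury. The whole endothelial gate and the duct gate held at most 3.995 CPM in any library. Ltbp3, whose product also binds latent TGF-beta, lies at chr19:5740904-5758532 on the plus strand. Mesothelial cells held 127 CPM, 129 CPM and 106 CPM of Ltbp3 in positive recovery, negative recovery and negative injury. The stellate gate held 91.3 CPM in positive recovery and 70.1 CPM in negative injury. By the same split, the positive recovery gate held 109 CPM in cells with Dpt and Mfap4 and 73.0 CPM in the others. Duct cells held 42.6 CPM, 45.2 CPM and 39.1 CPM across the libraries. Endothelial cells held 3.20 CPM, 2.90 CPM and 2.29 CPM. Ltbp1 and Ltbp3 were alike in their low endothelial levels and differed in duct cells, where only Ltbp3 passed 10 CPM.

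Ltbp2 encodes the family member that does not bind latent TGF-beta and sits on fibrillin fibres. It lies at chr12:84783212-84876532 on the minus strand and overlaps the antisense gene D030025P21Rik. It was found in 952 UMIs of positive recovery, 11 of negative recovery and 192 of negative injury. Endothelial cells held 0 UMIs in all 3 libraries, the tightest limit being 0.135 CPM in the 3571 cells of negative injury. Stellate-gated cells held 111 CPM (95.9 to 127) in positive recovery and 0 UMIs in negative injury. Mesothelial cells held 6.48 CPM in positive recovery, 0 UMIs in negative recovery and 8.63 CPM in negative injury. Against the limit that 0 UMIs allow, 3 counts in the gate, the positive recovery level was at least 2.63-fold higher than that of negative recovery. Cells of no gate in positive recovery held the highest level, 250.2 CPM (230.2 to 271).

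Most Ltbp2 of positive recovery lay in cells with the portal fibroblast genes Dpt (dermatopontin) and Mfap4 (a microfibril-associated protein). These 163 cells, 6.85% of the library, held 682 of the 952 UMIs (71.6%). This split was chosen after the values were seen. Within the stellate gate, the 57 cells with both genes held 195 CPM of Ltbp2 and the other 86 cells 23.6 CPM. The same 57 cells held 119 CPM of Tgfb2, against 44.9 CPM in the other 86. For Tgfb1 the order turned, with 25.1 CPM in cells with both genes and 75.2 CPM in the others. Duct cells of negative injury held 136 Ltbp2 UMIs in 32 of 1024 cells, 82 of them in 5 cells. Those 32 cells had portal fibroblast markers at 0 and summed duct markers at 2477 CPM, against 2189 CPM in the other 992. They also differed from the others in other ways. Their median depth was 21427 UMIs, against 14800.5 UMIs in the others, and hepatocyte RNA summed to 1496 CPM, against 10115 CPM. Spp1, a gene of the gate, was at 12469 CPM in the 32 cells and 21101 CPM in the others, and stellate markers summed to 15.3 CPM and 7.19 CPM.

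Ltbp4 encodes a binding protein selective for latent TGF-beta 1 that also assists elastic fibre assembly. It lies at chr7:27305136-27337692 on the minus strand. It was the most counted member in both recovery libraries, with 739 CPM (729 to 748) in positive recovery, 635 CPM (626 to 645) in negative recovery and 106 CPM (103 to 109) in negative injury over all cells. Both recovery libraries stood above the injury library. Mesothelial cells held 834 CPM (822 to 847) in positive recovery, 1000.2 CPM (945 to 1058) in negative recovery and 282 CPM (267 to 297) in negative injury. Endothelial cells held 569.7 CPM (529 to 613), 779.9 CPM (768 to 792) and 141 CPM (136 to 146). Vascular endothelial cells held 687 CPM (645 to 731) in negative recovery and 383 CPM (348 to 421) in negative injury. Duct cells were low throughout, at 15.5 CPM, 28.5 CPM (24.0 to 33.5) and 3.88 CPM (2.97 to 4.98). The stellate gate held 584 CPM (549 to 620.3) in positive recovery and 145 CPM (111 to 185) in negative injury, where fraction and stage both differ. Within the mixed positive recovery gate, cells with Dpt and Mfap4 held 619 CPM and the others 548 CPM (500 to 599).

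Ltbp4 was the only member past 2-fold between negative recovery and negative injury in all cells, endothelial cells, mesothelial cells and duct cells. Over all cells its log2 ratio was 2.48, ranked 4 of 9712 genes from the highest, of which 1.53% were higher and 4.93% were past 2-fold in either direction, and 9 members passed the filter. In endothelial cells it was 2.39, ranked 3 of 8689 genes with 0.794% higher and 3.58% past 2-fold either way. In mesothelial cells it was 1.79, ranked 19 of 8757 with 2.51% higher and 5.15% either way. In duct cells it was 1.47, ranked 21 of 9376 with 0.864% higher and 2.98% either way. Sinusoidal endothelial cells alone gave 2.53, ranked 2 of 8622 with 0.8% higher. In vascular endothelial cells the ratio was 0.83, short of 2-fold. The filter left 6 members in endothelial, 9 in mesothelial and 7 in duct cells. The median over all genes was 0.11 in all cells, 0.17 in endothelial, 0.10 in mesothelial and 0.07 in duct cells, so the Ltbp4 ratios stand that much closer to the other genes. With 50 CPM added the duct ratio was 0.54, short of 2-fold. With 1 CPM added, Tgfb3 in all cells and Tgfb1 in duct cells were also past 2-fold lower, and Tgfb2 in endothelial cells past 2-fold higher.

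The difference also held at matched depth. With each cell thinned to 2000 UMIs, a Ltbp4 UMI was found in 72.9% of negative recovery and 22.0% of negative injury endothelial cells, against 92.8% and 41.8% without thinning. The thinned share in mesothelial cells was 83.6% in negative recovery and 45.5% in negative injury. Other marker sums moved with these libraries. The 5 hepatocyte markers summed to 104 CPM in negative recovery and 398 CPM in negative injury endothelial cells, and the 5 mesothelial markers to 7680 CPM and 4228 CPM in mesothelial cells. Their part in the Ltbp4 ratios was not tested. Leukocyte-gated cells of positive recovery, thinned likewise, showed 5.56%. Duct cells held 28.5 CPM of Ltbp4 in negative recovery and 3.88 CPM in negative injury. Mesothelial markers in duct cells, as a share of their mesothelial level, correspond to 12.4 CPM of Ltbp4 in negative recovery and 3.63 CPM in negative injury. Sinusoidal markers correspond to 5.24 CPM in negative recovery and 0.981 CPM in negative injury. The part of free RNA in the duct ratio was not tested.

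**Figure D3:**
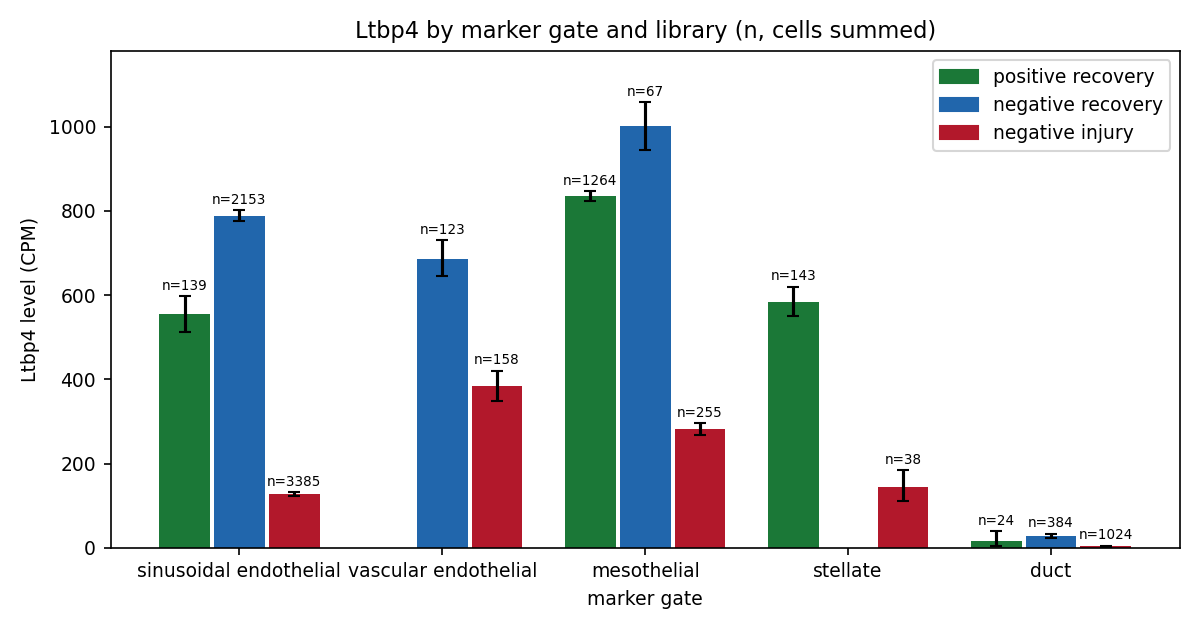
Ltbp4 level in CPM by cell type and library, with exact Poisson 95% intervals, on a linear axis that starts at 0. Mesothelial cells held 834 CPM in positive recovery, 1000.2 CPM in negative recovery and 282 CPM in negative injury, and the highest duct level was 28.5 CPM.

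The other members differed less by stage. In mesothelial cells Tgfbr2 was at 161 CPM (139 to 185) in negative recovery and 81.4 CPM (73.8 to 89.6) in negative injury (log2 ratio 0.90), and Tgfb2 had a log2 ratio of 0.75. Both were short of 2-fold on this scale. In endothelial cells the log2 ratios were 0.03 for Tgfb1, -0.18 for Tgfbr1, -0.06 for Tgfbr2 and -0.27 for Tgfbr3. In duct cells Tgfb1 gave -0.58, Tgfbr2 -0.43 and Tgfb2 -0.00. In vascular endothelial cells Tgfb2 was past 2-fold at 1.37, ranked 59 of 8909 genes with 2.27% higher. With 1 CPM added, Ltbp3 was past 2-fold there too, from 27 UMIs in negative recovery and 5 in negative injury. Cells of no gate, 139 in negative recovery and 374 in negative injury, had 3 members past 2-fold higher, Ltbp4 (2.83), Tgfbr2 (1.48) and Tgfb2 (1.28), where 12.7% of all genes were higher. The Tgfb2 value there rests on 16 UMIs in negative recovery and 42 in negative injury.

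**Figure D4:**
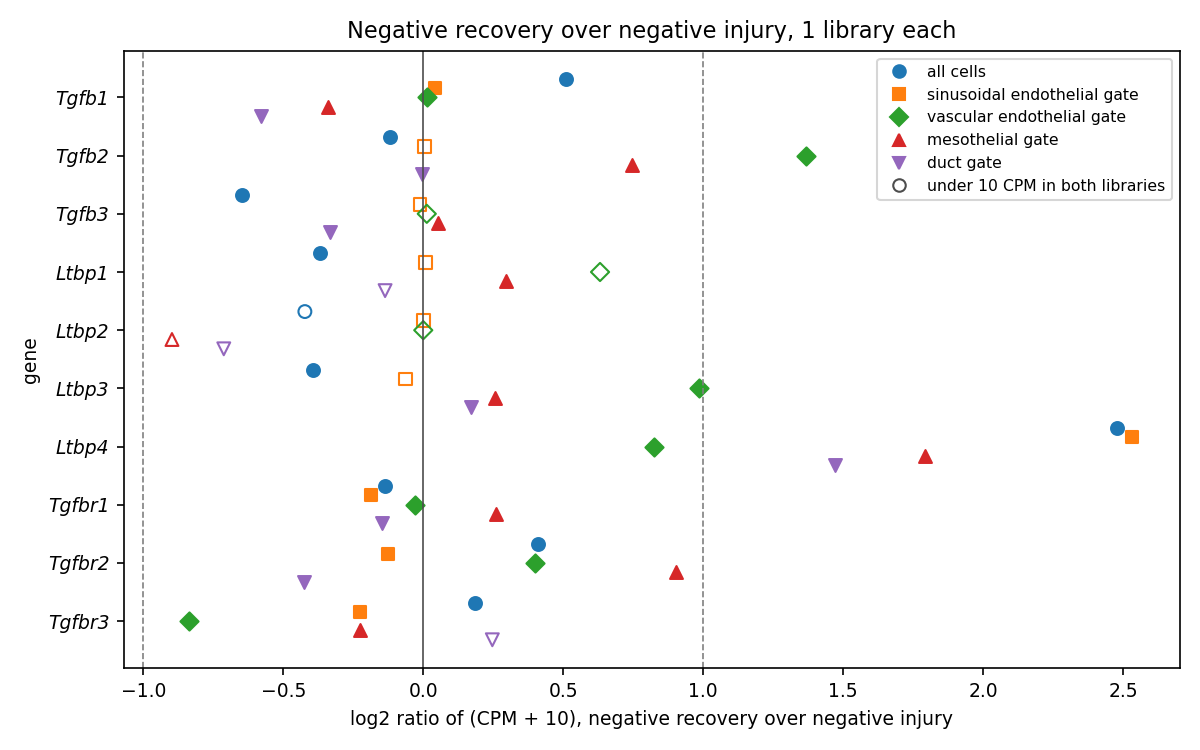
Log2 ratio of each member, negative recovery over negative injury, by cell type, with 10 CPM added to each level and dashed lines at 2-fold. Ltbp4 stood at 2.53 in sinusoidal endothelial, 0.83 in vascular endothelial, 1.79 in mesothelial and 1.47 in duct cells. Tgfb1 stood at 0.04 in sinusoidal endothelial cells.

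Tgfbr1 encodes the signalling type I receptor. It lies at chr4:47353222-47414931 on the plus strand. Its level varied least among cell types, between 20.2 CPM and 62.0 CPM in mesothelial, stellate, endothelial and duct cells of all libraries. Leukocyte-gated cells stood above that range at 100.8 CPM (82.3 to 122).

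Tgfbr2 encodes the type II receptor, which binds ligand first. It lies at chr9:116084293-116175360 on the minus strand. Endothelial cells held 252 CPM (225 to 281) in positive recovery, 267 CPM (259.7 to 274) in negative recovery and 279 CPM (272 to 286) in negative injury. Vascular endothelial cells held the highest levels, 469.9 CPM (435 to 506) in negative recovery and 354 CPM (321 to 390) in negative injury. Mesothelial cells of positive recovery held 162 CPM (157 to 167), and the stellate gate 102 CPM in positive recovery and 45.2 CPM in negative injury. Within the mixed positive recovery gate, cells with Dpt and Mfap4 held 116 CPM and the others 87.5 CPM (69.2 to 109). Duct cells held 7.75 CPM, 11.4 CPM and 18.7 CPM, below every other gate described.

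Tgfbr3 encodes betaglycan, the co-receptor that presents ligand, TGF-beta 2 above all. It lies at chr5:107106570-107289629 on the minus strand. The stellate gate held 209.8 CPM (189 to 232) in positive recovery and 208 CPM (168 to 255) in negative injury. Within the mixed positive recovery gate, the 57 cells with Dpt and Mfap4 held 175 CPM (149 to 204). The other 86 cells held 246 CPM (214 to 281). Endothelial cells held 190.2 CPM (167 to 216) in positive recovery, 196 CPM (189 to 202) in negative recovery and 237 CPM (231 to 244) in negative injury. Mesothelial cells held 111.8 CPM, 85.3 CPM and 102 CPM. Duct cells held 7.75 CPM, 4.13 CPM and 1.91 CPM, so duct cells were low in both Tgfbr2 and Tgfbr3 while holding Tgfb2.

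**Figure D5:**
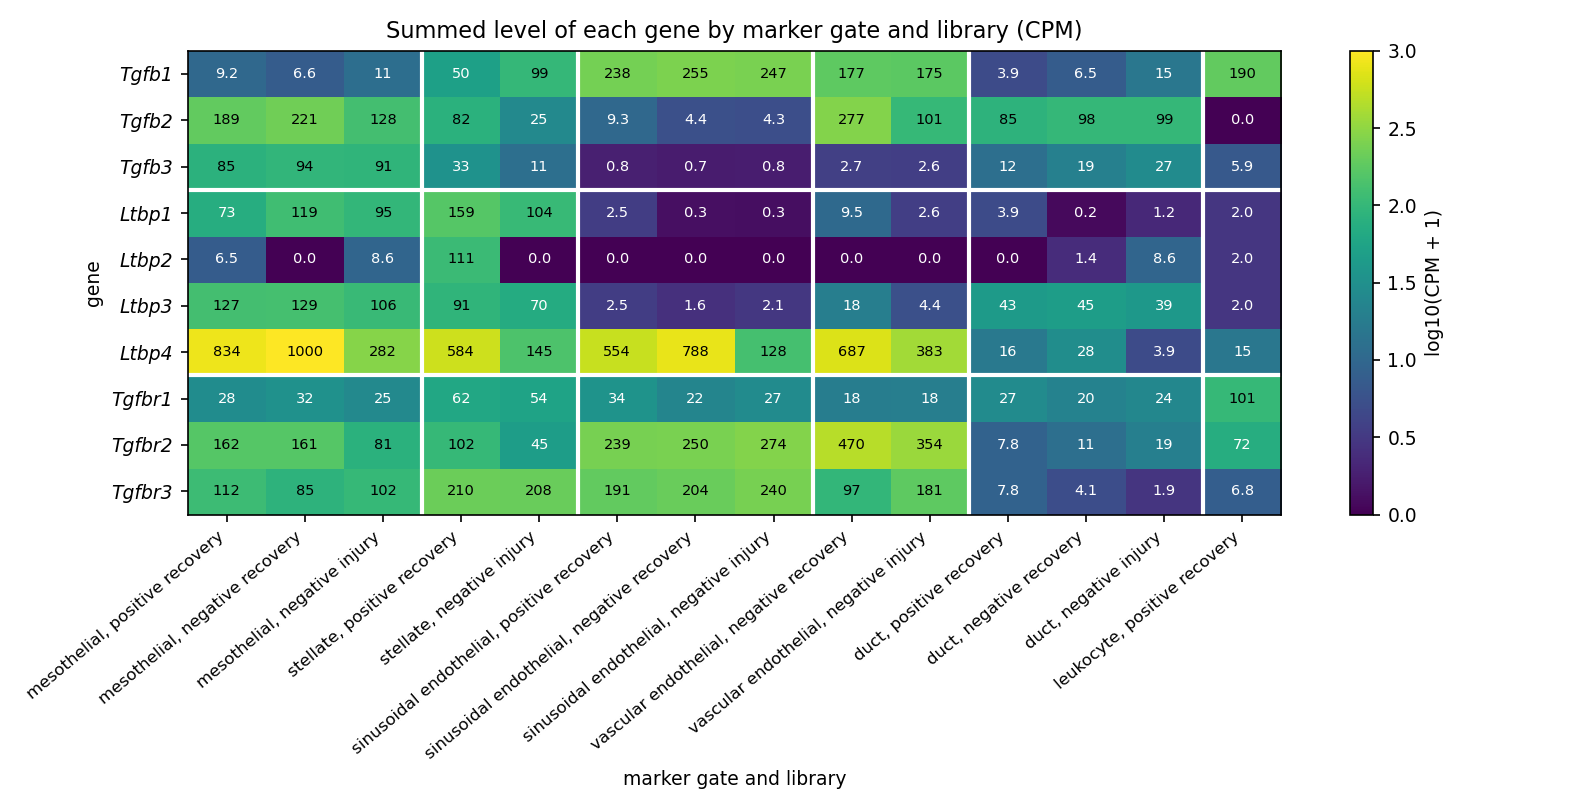
Level of each of the 10 genes, in CPM on a log colour scale, across cell types and libraries. Tgfb1 is highest in sinusoidal endothelial columns (238 CPM in positive recovery). In the vascular columns it is at 177 CPM in negative recovery and 175 CPM in negative injury. Tgfb2 is highest in mesothelial and vascular columns (189 CPM in positive recovery and 277 CPM in negative recovery). Ltbp2 is at 0 in every endothelial column.

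Mesothelial cells of positive recovery were also split by Osr1, the transcription factor named in the series title. The 358 cells with an Osr1 UMI had a median of 16201.5 UMIs and the 906 without one 13832. Tgfb2 was at 85.0 CPM in cells with Osr1 and 243 CPM in cells without (log2 ratio -1.42). Ltbp1 was at 22.4 CPM in cells with Osr1 and 100.1 CPM without (-1.77), and Ltbp4 at 532 CPM and 992 CPM (-0.89). Tgfb3, Ltbp3, Tgfbr2 and Tgfbr3 had log2 ratios between -0.29 and 0.26. Ltbp2 stood furthest in the other direction, at 10.3 CPM (8.13 to 12.9) with Osr1 and 4.47 CPM (3.43 to 5.72) without, a log2 ratio of 0.49. Col1a2, the gene whose promoter drives the Cre, was at 620.2 CPM in cells with Osr1 and 131 CPM without. These are cells of 1 library, and the split describes them without a test.

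Genes around the ligands and receptors were read from 4 lists. Over all cells in positive over negative recovery, 8.99% of all genes were past 2-fold higher and 10.4% lower. Of 14 genes for release or storage of the latent form, 12 passed the filter there, 4 past 2-fold higher and 3 lower. Lrrc32, which holds latent TGF-beta at the cell surface, was at 29.1 CPM in positive recovery and 140.3 CPM in negative recovery. Fbn1, encoding the microfibril protein fibrillin 1, was at 75.3 CPM and 19.2 CPM. Of 9 related receptors, all passed and 1 was higher and 2 lower. Eng, the endothelial co-receptor endoglin, was at 224 CPM in positive recovery and 1624 CPM in negative recovery. Of 14 Smads and their regulators, 0 were higher and 4 lower, among them the inhibitory Smad6 (log2 ratio -1.64) and Smad7 (-1.56). These counts follow libraries of different makeup, as above.

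Of 15 genes commonly listed as TGF-beta targets, 10 were past 2-fold higher and 0 lower over all cells of positive recovery. The shares over all genes were 8.99% higher and 10.4% lower. Within mesothelial cells 14 of the 15 passed, 5 past 2-fold higher and 1 lower, where 1.47% of genes were higher and 0.125% lower. Col1a1, a chain of type I collagen, was at 273 CPM in positive recovery and 28.7 CPM in negative recovery (log2 ratio 2.87), and Col1a2 at 299 CPM and 48.4 CPM (2.40). Col1a2 drives the Cre by which the positive cells are marked. Col3a1 (1.42) and Tgfbi (1.68) were also higher, Fn1, encoding fibronectin, was at 161 CPM in positive recovery and 1 UMI in negative recovery, and Tagln, a smooth muscle actin-binding protein, was lower (-1.12). No gene of the other 3 lists was past 2-fold there. In endothelial cells 12 targets passed, 4 past 2-fold higher (Col3a1, Fn1, Col1a2 and Col1a1), beside 0.952% of all genes. Sinusoidal cells were 139 of the 144 endothelial cells of positive recovery. In sinusoidal cells alone 9 targets passed, and of the 4 genes only Col3a1 was past 2-fold. In the whole endothelial gate mesothelial markers summed to 149 CPM in positive recovery and 23.3 CPM in negative recovery. Portal fibroblast markers summed to 157 CPM in mesothelial cells of positive recovery and 73.0 CPM in those of negative recovery, and their part in these collagen levels was not tested.

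Between negative recovery and negative injury, the release and storage genes past 2-fold in endothelial and mesothelial cells were lower in recovery. Thbs1, encoding the latent TGF-beta activator thrombospondin 1, was at 2.80 CPM in negative recovery and 32.6 CPM in negative injury in endothelial cells (log2 ratio -1.74). In mesothelial cells it was at 27.9 CPM in negative recovery and 179.5 CPM in negative injury (-2.32). Itgb3, an integrin subunit that pairs with the alpha V chain, was at 39.7 CPM and 197 CPM in endothelial cells (-2.06). Of the 14 release and storage genes, 10 passed in endothelial cells, 0 higher and 2 lower, where 2.79% of all genes were lower. In mesothelial cells 8 passed, 0 higher and 1 lower, where 2.64% of all genes were lower.

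Endothelial targets split by kind. Id1 and Id3, inhibitors of helix-loop-helix factors that also answer to bone morphogenetic proteins, were past 2-fold higher, Id3 at 1278 CPM in negative recovery and 489 CPM in negative injury (1.37) and Id1 at 254 CPM and 105 CPM (1.20). Timp1, a metalloproteinase inhibitor, was lower (-1.09), and 7 of the 15 targets passed the filter. Of all genes in endothelial cells, 0.794% were higher and 2.79% lower. No related receptor or Smad was past 2-fold in endothelial cells. In mesothelial cells 13 targets passed, 2 higher and 3 lower, where 2.51% of all genes were higher and 2.64% lower. Among the lower ones were Fn1 (-1.63) and Timp1 (-1.56). Tagln was at 73.0 CPM in negative recovery and 2.55 CPM in negative injury (2.73), and Acta2, smooth muscle actin, was also higher (1.15). In duct cells 7 targets passed and 1, Fn1, was past 2-fold, lower at -1.03, where 2.11% of all genes were lower.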

How the data were processed

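The deposited matrices hold UMI counts per gene and cell barcode, unnormalized, with 31053 genes and matrix software version 3.1.0 per the file headers. Libraries were made with 10x single cell 3′ v2 chemistry, per the labels' protocols. The submitters' processing notes list fastp 1, fastp 2.5.3a, featureCounts 1.6.2 and the builds GRCh38 and mm10, without saying which step used them, and they name no aligner. The digestion used 14 mg pronase and 3.7 U collagenase per mouse, per the labels' protocols.

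Barcodes under 500 UMIs, under 300 genes or over 20% mitochondrial UMIs were dropped. Scrublet in scanpy 1.11.5 called 108 doublets in positive recovery, 6 in negative recovery and 5 in negative injury, which were removed. The last 2 calls, 0.203% and 0.0918%, are too few for the caller to have worked there, so removing a further 67 and 263 high-scoring cells was tried. Barcodes numbered 2606, 3108 and 6160, with totals of 31432462, 27200555 and 48622040 UMIs in the kept cells.

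Counts were summed per gate and library (Python 3.11.15, numpy 2.4.6, scipy 1.17.1, pandas 2.3.3), scaled to CPM and compared as log2 of (CPM + 10) among genes with at least 10 CPM in either group. This scale understates the change of low genes. A difference past 2-fold was counted. Groups of under 20 cells were not described and of under 30 not compared. Thinned shares used 2000 UMIs per cell and left out shallower cells. The ratio computation was tested on simulated data.

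All 10 members are named, and of each pathway list up to 5 genes with the largest ratio past 2-fold were eligible. For each member the 3 genes most like it over 11 gate and library groups were also found. The members and lists were chosen with earlier results of these data known. A list gene and a feature overlapping a member are not reported here. Alternatives covered the CPM added, the filters, the scaling (TMM in edgeR 4.0.16, size factors in DESeq2 1.42.0, R 4.3.3), the cells kept, the gates and the averaging. Promoter windows are from RefSeq, and gene coordinates from GENCODE M21, GRCm38.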

Additional observations from a re-analysis of the deposited data

Results flagged for a closer look

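Tgfbr2 had ratios of opposite sign between cell types when negative recovery was set against negative injury. Its log2 ratio was 0.90 in mesothelial cells and -0.06 in endothelial cells, a difference of 0.96. The endothelial value joins -0.13 in sinusoidal cells and 0.40 in vascular cells, the latter of the same sign as in mesothelial cells. The Tgfbr2 ratio was -0.43 in duct cells, 1.33 below the mesothelial value. The duct levels behind it were 11.4 CPM in negative recovery and 18.7 CPM in negative injury. Neither difference was tested, since each group is 1 library.

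Ltbp2 was found outside the 4 cell types of the comparisons. Cells of no gate in positive recovery, 552 cells, held 250.2 CPM, while the cells of no gate held 0 UMIs in negative recovery and 0 UMIs in negative injury. In 97 of these cells Dpt and Mfap4 were both detected, and Ltbp2 there was at 431 CPM.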

How the results depend on the processing

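No paired analysis was possible because each group is 1 library and the labels give no replicate numbers. Of 632 member ratios recomputed under the alternatives, 538 stayed within their counting interval and 94 moved beyond it. No ratio past 2-fold changed sign, and the largest of the 21 that did change sign was 0.19 in size. The number of members past 2-fold changed in these cases. For positive over negative recovery in all cells it was 4 in place of 6 with 50 CPM added (Ltbp2 and Tgfb3 no longer past 2-fold). In vascular endothelial cells of negative recovery over negative injury it was 2 in place of 1 with 1 CPM added or with the mean of each cell's CPM (Ltbp3 added). With 1 CPM added it was 2 in place of 1 for negative recovery over negative injury in all cells (Tgfb3 lower and Ltbp4 higher), 2 in endothelial cells (Tgfb2 and Ltbp4 higher) and 2 in duct cells (Tgfb1 lower and Ltbp4 higher). With 50 CPM added it was 0 in duct cells. For positive over negative recovery it was 1 in place of 0 in mesothelial cells with the mean of each cell's CPM (Ltbp2), and 4 in place of 0 in endothelial cells when cells of more than 1 gate were kept. These settings differ in the weight of low genes, of single cells or of mixed cells, and the cause was not tested further. The Ltbp4 ratio of negative recovery over negative injury ranged from 2.14 to 2.58 in all cells, 2.12 to 2.46 in endothelial, 1.62 to 1.92 in mesothelial and 0.54 to 2.60 in duct cells.

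TMM scaling changed the split over all genes. In negative recovery over negative injury it gave 92 higher and 390 lower genes in all cells, against 149 and 330 unscaled, 41 and 307 in endothelial cells against 69 and 242, and 153 and 304 in mesothelial cells against 220 and 231. In positive over negative recovery it gave 1012 higher and 880 lower genes in all cells, against 903 and 1041. Over all cells of negative recovery and negative injury, adding 1 CPM gave 326 higher and 537 lower genes, and adding 50 CPM gave 37 and 116. Depth limits the 67 mesothelial cells of negative recovery, where 0 UMIs allow up to 2.46 CPM, and the 24 duct cells of positive recovery, where 1 UMI is 3.88 CPM.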

Other observations

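Endothelial cells of negative injury were split by Selp, the gene for P-selectin, after the levels were seen. The 1440 cells with a Selp UMI held 18.4 CPM of Tgfb2 and the 2131 without one 1.76 CPM. Tgfbr2 was at 311 CPM with Selp and 250.4 CPM without, and Ltbp4 at 130.5 CPM with Selp and 151 CPM without. Median depth was 6984 UMIs with Selp and 5492 UMIs without. Vascular endothelial cells held 116 of the 212 Tgfb2 UMIs of the gate, and the split did not set them apart from sinusoidal ones. The part of depth and of vascular cells in these levels was not tested.

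Over the 11 gate and library groups of at least 30 cells, the gene most like each member by Pearson's r of log2(CPM + 10) was found among 10275 genes. For Tgfb1 it was Abcg1, a cholesterol exporter (r = 0.99), and for Tgfb2 it was Zfyve21 (0.99). For Tgfb3 it was Smtnl2 (0.98), for Ltbp1 Smoc2, a matrix protein (0.99), for Ltbp2 Slc6a7 (0.94) and for Ltbp3 Pkia (0.99). For Ltbp4 it was Lats2, a Hippo pathway kinase (0.96), for Tgfbr1 Dock10 (0.96), for Tgfbr2 Rnf145 (0.98) and for Tgfbr3 Slc43a3 (0.99). Tgfb1 and Tgfb2 had r = -0.90, Tgfb2 and Tgfb3 0.86, and Tgfb3 and Ltbp3 0.91. The groups share libraries, and the values are a description of these groups without a test.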
